A study of Mus musculus with 18 samples.

Results

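The comparison described here is between obstructed kidneys with Twist targeted in endothelial cells and unobstructed contralateral kidneys. It comprised 6 of the 18 libraries, 3 per group, chosen from the source labels. Messenger and other RNA of whole mouse kidney was sequenced, and the values are raw read counts per gene, given below as CPM, that is, counts scaled to a common library size with TMM factors. The study asked how endothelial-to-mesenchymal transition contributes to kidney fibrosis. This comparison shows which genes still differed from unobstructed tissue when the endothelial Twist gene was targeted.

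Unilateral ureteral obstruction (UUO) ties off the ureter of one kidney, and the kidney on the other side, the contralateral kidney, drains normally. Pressure injures the tubule epithelium, which takes up a repair state, leukocytes enter, and fibroblasts and pericytes become matrix-producing myofibroblasts. Twist1, a basic helix-loop-helix transcription factor, drives mesenchymal programmes, and in endothelial-to-mesenchymal transition endothelial cells lose junction proteins such as VE-cadherin and gain mesenchymal genes.

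Kidneys of the group called Twist cKO UUO here (Twist EndMT–cKO UUO in the labels) were obstructed and carried the Cdh5-CreERT2 transgene with both Twist alleles floxed ("+ FF"). The WT UUO kidneys were obstructed, and the contralateral kidneys were not. In both of these groups, libraries 1 and 2 were labelled Cre-positive with wild-type Twist ("+ ++") and library 3 was labelled Cre-negative with floxed Twist ("− FF"). The 3 libraries labelled healthy were all "− FF". These 4 groups came from 1 mouse line of mixed C57BL6, 129sv and Balb/c background, with an endpoint age of 12 weeks. Snail cKO UUO kidneys ("+ FF", Cdh5-CreERT2 with floxed Snail) and Myc cKO UUO kidneys ("+ FF", GGT-Cre with floxed Myc) were obstructed and of mixed C57BL6 and Balb/c background. The endpoint ages of these groups were 12 weeks and 11-12 weeks. The Cdh5 promoter directs a tamoxifen-inducible Cre to endothelial cells, so other cells of the kidney are meant to keep their Twist alleles. In which cells the alleles were removed was not measured in these libraries. Unobstructed kidneys of Cre-positive floxed mice were not among the libraries, so obstruction and genotype both differ between Twist cKO UUO and contralateral kidneys and cannot be told apart within this comparison. The labels do not tie libraries to animals. Their genotypes, with the sex given below, place the 3 contralateral libraries in different animals and Twist cKO UUO 2 in another animal than 1 and 3. The labels do not say whether Twist cKO UUO 1 and 3 came from separate animals. Their counts differed by a chi-square of 66.3 per degree of freedom over genes, against 28.7 between contralateral 1 and 3. Whether Twist cKO UUO 1 and 3 share an animal was not tested. The p-values therefore measure the spread between libraries, of which a part may be technical.

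Total counts were 52.6 to 73.9 M (M, mega) per library in Twist cKO UUO kidneys and 86.1 to 91.3 M in contralateral kidneys. Mitochondrial ribosomal RNA took 26.7 ± 2.94% of the counts in Twist cKO UUO libraries and 48.0 ± 1.8% in contralateral libraries (SD, n = 3 each). Library 2 of each of these groups, and of WT UUO and healthy, was from a male by Ddx3y and Xist. Contralateral 3 and WT UUO 3, the libraries of their groups labelled "− FF" like the healthy kidneys, did not reach the low levels of the other libraries labelled floxed for Twist at genes near Twist1 on chromosome 12, described at the end. Kidney identity was plain in both groups: the megalin gene Lrp2 and the uromodulin gene Umod were above 1000 CPM in all 6 libraries.

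Of 21050 genes tested, 9029 (42.9%) differed between Twist cKO UUO and contralateral kidneys at a Benjamini-Hochberg adjusted p under 0.05 in edgeR's quasi-likelihood test over all 18 libraries. Of these, 4525 (21.5% of the tested genes) were higher in Twist cKO UUO and 4504 (21.4%) were lower, and 4470 (21.2%) were called with a change of at least 2-fold. The median log2 fold change over all tested genes was 0.03. These shares are the background for every count below. Genes were grouped by 39 lists of known roles, and besides those chosen by rule some are named after their values were seen. Without contralateral 3 and WT UUO 3, 8065 genes were called, and with healthy in place of contralateral kidneys 10162 (48.3%). Fewer cells of a type and less RNA per cell cannot be told apart in a bulk library.

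**Figure D1:**
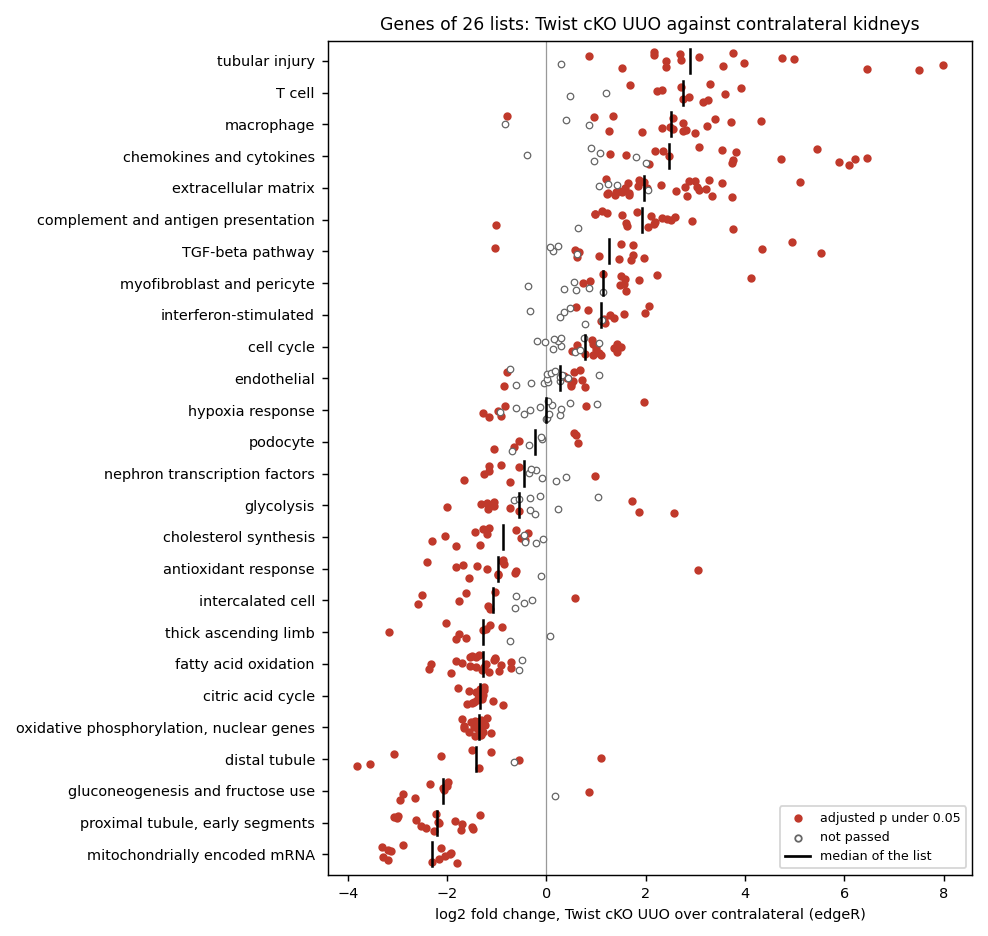
Log2 fold change of Twist cKO UUO over contralateral kidneys (x axis) for each tested gene of 26 of the 39 lists (y axis). Filled points passed an adjusted p of 0.05, open points did not, and black bars are list medians. All 16 genes of the early proximal segments lie left of 0, and 17 of 18 tubular injury genes are filled points right of it.

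The promoters printed next belong to genes that rose and hold a motif of a factor known in inflammation. They are 250 bases ending at the RefSeq transcription start (GRCm38.p6), in lower case with motif matches in capitals. This first set shows the NF-kB decamer motif, searched on both strands, in members of the chemokine and cytokine list. NF-kB is a transcription factor of the inflammatory response. Cxcl1 lies at chr5:90890995-90891244 (+), Cxcl2 at chr5:90903649-90903898 (+), Csf1 at chr3:107760470-107760719 (−) and Il6 at chr5:30012864-30013113 (+).

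Cxcl1: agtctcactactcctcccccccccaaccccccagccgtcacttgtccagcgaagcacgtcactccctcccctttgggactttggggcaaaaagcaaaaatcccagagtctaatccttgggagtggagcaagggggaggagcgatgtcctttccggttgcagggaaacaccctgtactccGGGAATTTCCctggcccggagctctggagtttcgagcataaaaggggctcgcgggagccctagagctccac
Cxcl2: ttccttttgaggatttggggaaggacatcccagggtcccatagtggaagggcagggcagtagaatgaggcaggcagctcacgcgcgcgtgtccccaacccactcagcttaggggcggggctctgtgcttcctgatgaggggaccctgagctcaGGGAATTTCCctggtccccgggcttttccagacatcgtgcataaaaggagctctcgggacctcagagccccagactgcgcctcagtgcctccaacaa
Csf1: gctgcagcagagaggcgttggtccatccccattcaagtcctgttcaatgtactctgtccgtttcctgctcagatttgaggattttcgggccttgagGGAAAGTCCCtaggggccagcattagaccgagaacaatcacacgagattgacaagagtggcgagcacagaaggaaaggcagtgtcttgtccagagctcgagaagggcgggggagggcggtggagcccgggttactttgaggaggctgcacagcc
Il6: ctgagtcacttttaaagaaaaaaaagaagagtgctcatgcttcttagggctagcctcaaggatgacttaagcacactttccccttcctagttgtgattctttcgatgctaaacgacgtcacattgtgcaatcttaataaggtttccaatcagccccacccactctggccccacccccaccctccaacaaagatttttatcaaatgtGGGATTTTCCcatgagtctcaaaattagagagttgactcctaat

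These were the 4 matches among the 16 list genes with a promoter in the table (25.0%), and all 4 genes rose in Twist cKO UUO. Of all 27025 promoters in the table, 91 (0.337%) held the motif. It was in 24 of 2975 promoters (0.807%) of genes called higher in Twist cKO UUO and in 5 of 3213 (0.156%) of genes called lower. The match is a description of the letters and not of binding. Motifs of the factors AP-1 and HNF1 were searched in the same way, and no promoter is printed for them. AP-1 matches lay in list genes that rose, such as Lif and Plaur, and in others that fell, such as Srxn1 and Prdx1. HNF1 matches lay in Cp (log2 fold change 2.70) and in G6pc (−2.95).

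Tubular injury genes rose almost without exception: 17 of 18 were higher in Twist cKO UUO, with a median log2 fold change of 2.89. Havcr1, which encodes KIM-1, a phosphatidylserine receptor of injured proximal tubule, had 265, 409 and 280 CPM in Twist cKO UUO kidneys, against 1.16, 3.36 and 0.755 CPM in contralateral kidneys (log2 fold change 7.51 ± 1.33 SE, adjusted p = 0.00044). Lcn2, which encodes the iron-carrier binder NGAL, had 161, 136 and 158 CPM in Twist cKO UUO, against 1.84, 1.76 and 1.54 CPM in contralateral kidneys (6.46 ± 0.30, adjusted p = 1.4e-08). Both genes were low in all 3 contralateral libraries and abundant in all 3 obstructed ones. Krt20, a keratin of stressed epithelium, had 25.9, 27.8 and 31.0 CPM in Twist cKO UUO, against 0.171, 0.0929 and 0.0656 CPM in contralateral kidneys (log2 fold change 7.99 ± 0.53, adjusted p = 2.5e-07).

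Other genes of the tubular injury list included Vcam1, Spp1 and Cd44. Vcam1, an adhesion molecule that binds leukocytes, had 222, 298 and 238 CPM in Twist cKO UUO, against 9.26, 8.75 and 10.4 CPM in contralateral kidneys (log2 fold change 4.74 ± 0.28, adjusted p = 8.7e-08). Spp1, which encodes osteopontin, had 7131, 8899 and 8509 CPM in Twist cKO UUO, against 1270, 598 and 1052 CPM (3.07 ± 0.28, adjusted p = 2.8e-06). In neither gene did the groups overlap. The hyaluronan receptor gene Cd44 rose by 4.99 ± 0.46 on the log2 scale, Sox9, a transcription factor of regenerating tubule, by 3.98 ± 0.52, and Clu, which encodes the chaperone clusterin, by 2.71 ± 0.24. Plaur, the urokinase receptor gene, rose by 2.16 ± 0.14. Krt7 did not pass: it had 129, 138 and 117 CPM in Twist cKO UUO and 102, 89.2 and 124 CPM in contralateral kidneys, and the groups overlapped.

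Other genes were also among the 10 largest rises. Aoc1, which encodes a diamine oxidase, had 185, 238 and 201 CPM in Twist cKO UUO, against 4.18, 2.84 and 3.05 CPM in contralateral kidneys (log2 fold change 5.95 ± 0.19, adjusted p = 8.7e-11). Ctnnd2, which encodes delta-catenin of cell junctions, rose by 5.69 ± 0.54 and Islr2, a leucine-rich repeat membrane protein gene, by 5.68 ± 0.53. Islr2 had 9.45, 18.7 and 14.5 CPM in Twist cKO UUO, against 0.324, 0.204 and 0.295 CPM in contralateral kidneys. Every obstructed library stood far above every contralateral one. The Fc receptor-like gene Fcrls rose by 5.64 ± 0.67 and Lif, an interleukin-6 family gene of the chemokine and cytokine list, by 5.44 ± 0.79.

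**Figure D2:**
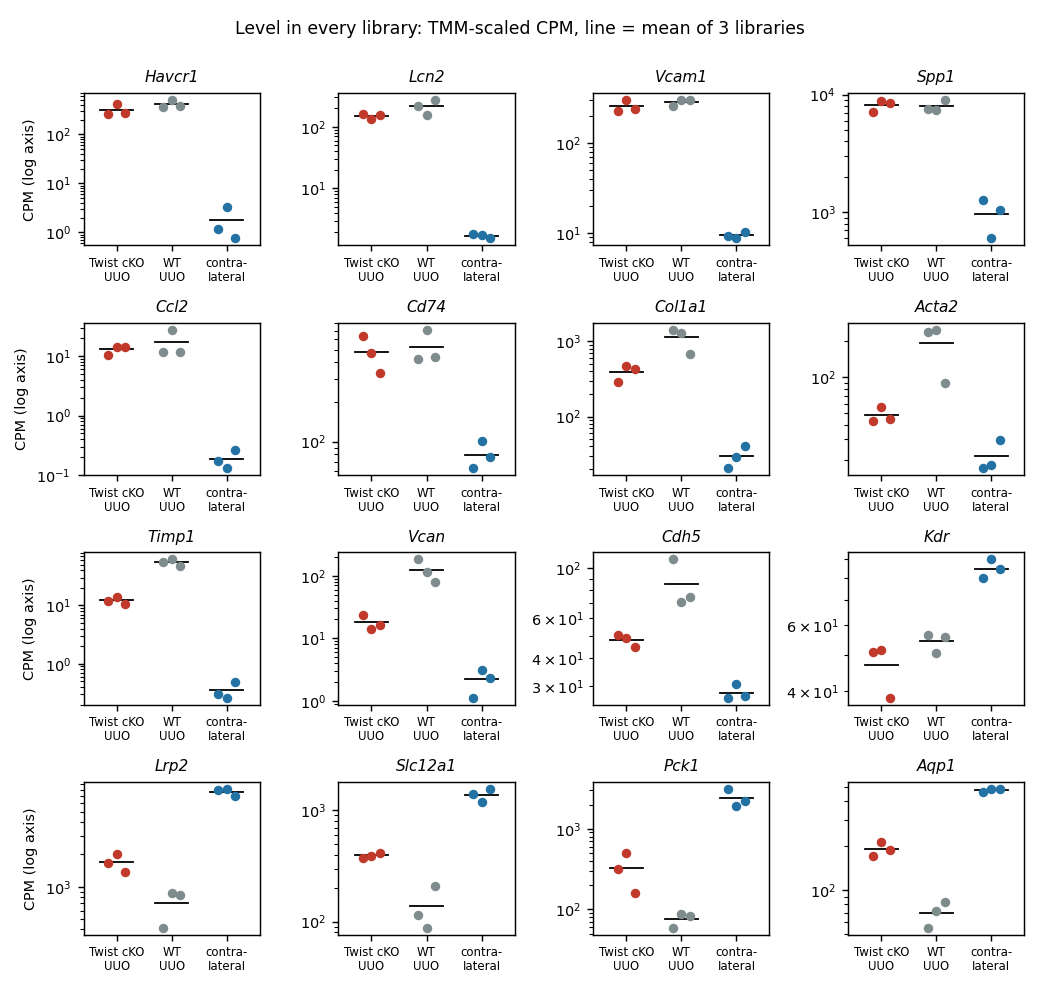
TMM-scaled CPM (y axis, log scale) of 16 genes in each library of Twist cKO UUO, WT UUO and contralateral kidneys (x axis); points are libraries and lines are means of 3. Havcr1 was 265 to 409 CPM in Twist cKO UUO and 0.755 to 3.36 CPM in contralateral kidneys, while Lrp2 was 1368 to 2013 CPM and 6938 to 8131 CPM.

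Chemokine and cytokine genes followed, with 17 of 23 higher in Twist cKO UUO and a median of 2.48. Ccl2, the ligand that draws CCR2-bearing monocytes, had 10.7, 14.5 and 14.2 CPM in Twist cKO UUO, against 0.171, 0.130 and 0.263 CPM in contralateral kidneys (log2 fold change 6.10 ± 0.55, adjusted p = 2.9e-06). Cxcl1, a neutrophil attractant and one of the promoters shown above, had 16, 16.1 and 15.1 CPM, against 0.649, 0.650 and 0.476 CPM (4.73 ± 0.47, adjusted p = 5.9e-06). The 3 obstructed libraries were nearly equal to each other in Cxcl1, and none came near a contralateral value. Csf1, the macrophage growth factor gene, had 38.1, 40.8 and 47.0 CPM in Twist cKO UUO, against 10.1, 9.23 and 8.4 CPM (2.18 ± 0.27, adjusted p = 2.5e-05). Cxcl16, a ligand of CXCR6 on T cells, rose by 1.60 ± 0.14. Il6 was scarce: it had 0.300, 0.110 and 0.146 CPM in Twist cKO UUO, against 0.0171, 0.0186 and 0 CPM, and its adjusted p of 0.015 became 0.055 without Twist cKO UUO 1 and 0.058 without contralateral 3 (log2 fold change 3.81 ± 1.16). Cxcl12 did not pass, at 104, 58.8 and 58.3 CPM in Twist cKO UUO and 101, 79.8 and 108 CPM in contralateral kidneys.

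Macrophage genes rose in 16 of 20 cases, with 1 lower and a median of 2.51. Mrc1, the mannose receptor gene, had 79.7, 96.5 and 76.9 CPM in Twist cKO UUO, against 10.9, 8.51 and 7.61 CPM in contralateral kidneys (log2 fold change 3.23 ± 0.22, adjusted p = 2.5e-07). C1qa and C1qc, which encode chains of the first complement component, rose by 2.55 ± 0.22 and 2.48 ± 0.23, and Ccr2, the receptor of the Ccl2 ligand, by 3.72 ± 0.55. Against the rest, Mertk, an engulfment receptor gene, was lower at 54.5, 47.7 and 40.3 CPM in Twist cKO UUO, against 88.2, 85.4 and 74.6 CPM (−0.80 ± 0.19, adjusted p = 0.0034). Arg1, an arginase gene used as a mark of alternatively activated macrophages, did not pass, with 0.965, 1.10 and 0.774 CPM in Twist cKO UUO and 0.734, 0.464 and 3.84 CPM in contralateral kidneys.

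T cell genes rose in 11 of 13 cases with a median of 2.75, at low levels. Cd5 had 1.79, 1.33 and 1.11 CPM in Twist cKO UUO, against 0.0683, 0.0557 and 0.148 CPM in contralateral kidneys (log2 fold change 3.92 ± 0.61, adjusted p = 0.00014). Lck, the kinase gene of T cell receptor signalling, rose by 2.22 ± 0.38 and Zap70, its partner, by 2.71 ± 0.53. The summed level of the T cell list was 31.4, 18.8 and 12.9 CPM in the obstructed libraries, against 4.32, 5.50 and 5.38 CPM. The 3 obstructed libraries thus differed among themselves but not enough to meet the contralateral range. Of 9 B cell genes, 2 rose, Cd79b (1.33 ± 0.38) and Ighm (1.73 ± 0.50), where 21.5% of all tested genes were called higher. The summed B cell level was 29.7 to 35.1 CPM in Twist cKO UUO, inside the contralateral range of 19.0 to 38.3 CPM. Of 10 neutrophil genes 1 rose, Csf3r, the receptor gene for granulocyte colony-stimulating factor (1.58 ± 0.30). The summed neutrophil level was 8.15 to 9.57 CPM in Twist cKO UUO and 2.63 to 7.94 CPM in contralateral kidneys. S100a8, a defining neutrophil gene, had 1.19, 0.682 and 0.526 CPM in Twist cKO UUO and 1.55, 0.780 and 0.591 CPM in contralateral kidneys, which overlapped.

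Complement and antigen presentation genes rose in 18 of 20 cases, with a median of 1.93. Cd74, the invariant chain of MHC class II, had 635, 470 and 330 CPM in Twist cKO UUO, against 62.7, 100.3 and 75.7 CPM in contralateral kidneys (log2 fold change 2.59 ± 0.37, adjusted p = 7.9e-05). C3ar1, the receptor gene for the C3a fragment, rose by 2.93 ± 0.27, and the protease genes C1ra and C1s by 1.63 ± 0.18 and 2.04 ± 0.24. Cfb, which encodes factor B of the alternative pathway, was lower at 6.92, 9.30 and 5.43 CPM in Twist cKO UUO, against 12.8, 19.2 and 11.8 CPM (−1.02 ± 0.26, adjusted p = 0.0060). Interferon-stimulated genes rose in 10 of 16 cases with a median of 1.11. Ifit2, which encodes a restrictor of viral RNA translation, rose by 1.18 ± 0.13, the transcription factor gene Irf1 by 1.36 ± 0.16 and the guanylate-binding protein gene Gbp2 by 2.06 ± 0.41.

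Extracellular matrix genes were higher in 29 of 33 cases, and the median was 1.97. All 33 had every Twist cKO UUO library above every contralateral library, which held for 28.1% of all tested genes. Col15a1, a collagen of vessel basement membranes, had 162, 186 and 159 CPM in Twist cKO UUO, against 21.8, 33.2 and 27.6 CPM in contralateral kidneys (log2 fold change 2.62 ± 0.27, adjusted p = 5.9e-06). Col1a1, the main fibrillar collagen chain of scar, had 288, 473 and 428 CPM, against 20.6, 28.9 and 40.1 CPM (3.73 ± 0.56, adjusted p = 0.00011). The lowest obstructed library held several times the collagen RNA of the highest contralateral one. Timp1, an inhibitor of matrix metalloproteinases, had 12.0, 14.0 and 10.8 CPM, against 0.307, 0.260 and 0.492 CPM (5.10 ± 0.52, adjusted p = 6.6e-06). Fn1, the fibronectin gene, rose by 3.08 ± 0.32, the basement membrane gene Col4a2 by 1.41 ± 0.13 and the collagen crosslinker gene Loxl1 by 1.64 ± 0.17. The 4 that did not pass were Postn, Dcn, Lum and Eln, with log2 fold changes of 1.07 to 2.04.

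The TGF-beta pathway, the classic inducer of matrix genes, had 13 of 18 genes higher and 1 lower, with a median of 1.26. Its ligand gene Tgfb1 had 17.7, 16.1 and 19.6 CPM in Twist cKO UUO, against 5.72, 6.11 and 4.71 CPM in contralateral kidneys (log2 fold change 1.69 ± 0.20, adjusted p = 1.4e-05). Ltbp2, a latent TGF-beta binding protein gene, had 26.8, 54.9 and 29.8 CPM, against 0.359, 0.372 and 1.67 CPM (5.52 ± 0.73, adjusted p = 4.8e-05). The receptor gene Tgfbr2 rose by 1.06 ± 0.15. Bmp7, a ligand with an opposing action in kidney, was the one that fell, at 15.2, 17.4 and 16.2 CPM in Twist cKO UUO, against 29.4, 35.3 and 35.8 CPM (−1.04 ± 0.22, adjusted p = 0.0017). Smad7, an inhibitor that the pathway itself induces, did not pass (0.13 ± 0.10).

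Of 17 myofibroblast and pericyte genes, 11 were higher in Twist cKO UUO and 0 were lower, with a median of 1.14. In 15 of the 17 every Twist cKO UUO library lay above every contralateral one, as in 28.1% of all tested genes. Pdgfrb, the pericyte growth factor receptor gene, had 167, 125 and 137 CPM in Twist cKO UUO, against 47.3, 49.2 and 48.8 CPM in contralateral kidneys (log2 fold change 1.56 ± 0.16, adjusted p = 5.0e-06). Pdgfra rose by 1.49 ± 0.19 and Cdh11, a mesenchymal cadherin gene, by 2.23 ± 0.32. Acta2, which encodes smooth muscle actin, the usual myofibroblast marker, had 43.0, 56.5 and 44.4 CPM in Twist cKO UUO and 17.2, 18.3 and 29.9 CPM in contralateral kidneys. The groups did not overlap, but the fitted difference of 1.14 ± 0.50 had an adjusted p of 0.078. Myh11, the smooth muscle myosin gene, had 21.6, 14.2 and 19.6 CPM in Twist cKO UUO and 23.0, 17.0 and 31.6 CPM in contralateral kidneys, and Tpm2, Cnn1 and Rgs5 did not pass either.

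Mesenchymal transcription factors rose in 5 of 7 cases, and the 2 that did not pass were Twist1 and Twist2. Twist1 had raw counts of 29, 49 and 21 in Twist cKO UUO and 11, 20 and 8 in contralateral kidneys, or 0.378, 0.596 and 0.307 CPM and 0.188, 0.372 and 0.131 CPM (log2 fold change 0.90 ± 0.51, adjusted p = 0.17). The groups overlapped, and WT UUO kidneys held 2.13, 4.49 and 1.14 CPM. The labels do not give which part of the gene the Cre removes, and cells other than endothelium are meant to keep the gene. These whole-kidney counts therefore check the label only in part. Twist2 had 0.300, 0.256 and 0.219 CPM in Twist cKO UUO and 0.0342, 0.167 and 0.0984 CPM in contralateral kidneys (adjusted p = 0.14). Zeb2, Prrx1 and Zeb1 rose by 1.18 ± 0.14, 1.77 ± 0.31 and 0.62 ± 0.11, and Snai1 by 1.65 ± 0.40 (adjusted p = 0.0036). Snai2 rose by 0.89 ± 0.28 (adjusted p = 0.019), a call lost without contralateral 3 (adjusted p = 0.064), contralateral 1 (0.056) or Twist cKO UUO 3 (0.053).

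Endothelial genes, of the cells to which the Cre is directed, showed no common direction. Of 25, 9 were higher, 2 were lower and the median was 0.28. Cdh5, which encodes VE-cadherin and whose promoter drives the Cre, had 50.5, 49.1 and 44.7 CPM in Twist cKO UUO, against 26.5, 30.4 and 27.0 CPM in contralateral kidneys (log2 fold change 0.78 ± 0.13, adjusted p = 0.00030). Eng, a TGF-beta co-receptor gene, rose by 0.54 ± 0.08 and Pecam1 by 0.49 ± 0.13. The other two called genes went the other way. Kdr, the main VEGF receptor gene, had 50.7, 51.3 and 38.3 CPM in Twist cKO UUO, against 79.9, 89.8 and 84.7 CPM (−0.86 ± 0.14, adjusted p = 0.00025), and Ehd3, a marker of glomerular endothelium, fell by 0.79 on the log2 scale. Tek, the angiopoietin receptor gene, did not pass (−0.31 ± 0.15). Without contralateral 3 and WT UUO 3, 5 endothelial genes were called higher, and against healthy kidneys 6 were called lower.

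Vegfa, the ligand of Kdr, which tubule and podocyte cells supply to capillaries, had 78.1, 79.2 and 76.9 CPM in Twist cKO UUO, against 159, 168 and 194 CPM in contralateral kidneys (log2 fold change −1.15 ± 0.16, adjusted p = 6.2e-05). Every obstructed library held less than every contralateral one. Hif1a, the oxygen-regulated transcription factor gene, had 128, 129 and 125 CPM in Twist cKO UUO and 125, 121 and 138 CPM in contralateral kidneys (−0.01 ± 0.19, adjusted p = 0.98), though its activity is set mainly at the protein level. Of 21 hypoxia response genes, 2 were higher and 5 were lower, with a median of −0.01. The prolyl hydroxylase gene Egln1 fell by 0.91 and the mitophagy gene Bnip3 by 1.27 on the log2 scale. The 2 that rose were Loxl2, a collagen crosslinker also on the matrix list (1.97 ± 0.25), and Ddit4, a brake on mTOR (0.80 ± 0.23), whose adjusted p of 0.011 became 0.050 without contralateral 3, just past the threshold, and 0.059 without contralateral 3 and WT UUO 3.

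Transporter genes of the early proximal tubule, which reclaim filtered glucose, amino acids, phosphate and protein, fell in all 16 cases, with a median of −2.21. The megalin gene Lrp2 had 1680, 2013 and 1368 CPM in Twist cKO UUO, against 7945, 8131 and 6938 CPM in contralateral kidneys (log2 fold change −2.18 ± 0.28, adjusted p = 3.1e-05). The neutral amino acid exchanger gene Slc7a8 had 29.1, 27.4 and 27.5 CPM, against 139, 141 and 99.3 CPM (−2.17 ± 0.20, adjusted p = 2.8e-06). In both, the highest obstructed library lay far below the lowest contralateral one. Gatm, which makes the creatine precursor, fell by 3.07 on the log2 scale, Cubn, the partner of megalin, by 1.85 and the water channel gene Aqp1 by 1.34. Slc34a1, the phosphate transporter gene, had 443, 768 and 211 CPM in Twist cKO UUO, against 2120, 3524 and 2047 CPM (−2.43 ± 0.56, adjusted p = 0.0030).

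The last proximal segment was measured less evenly, since several of its genes are higher in males and 1 library in each group was male. Slc7a13, an aspartate and glutamate transporter gene, had 1.5, 117 and 0.205 CPM in Twist cKO UUO and 1.96, 745 and 1.28 CPM in contralateral kidneys. Acsm3, an acyl-CoA synthetase gene, had 1.55, 44.4 and 1.10 CPM in Twist cKO UUO and 9.89, 507 and 6.71 CPM in contralateral kidneys. Within each group the male library stood above both others, and in the male pair the obstructed kidney was lower, by a log2 ratio of −2.67 for Slc7a13 and −3.50 for Acsm3 at a pseudocount of 0.5 CPM. Neither gene passed the test. Of 15 genes of the segment, 7 were lower, with a median of −2.50. The number became 12 with sex as a covariate and 4 without Twist cKO UUO 1 or without Twist cKO UUO 3. Slc22a7, an organic anion transporter gene, had 6.17, 2.13 and 3.11 CPM in Twist cKO UUO, against 81.9, 69.3 and 51.1 CPM (−4.15 ± 0.88, adjusted p = 0.0017), without a gap between the sexes in contralateral kidneys, where the male library lay between the other two. Serpina1f and Napsa fell by 1.79 and 1.58 on the log2 scale.

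**Figure D3:**
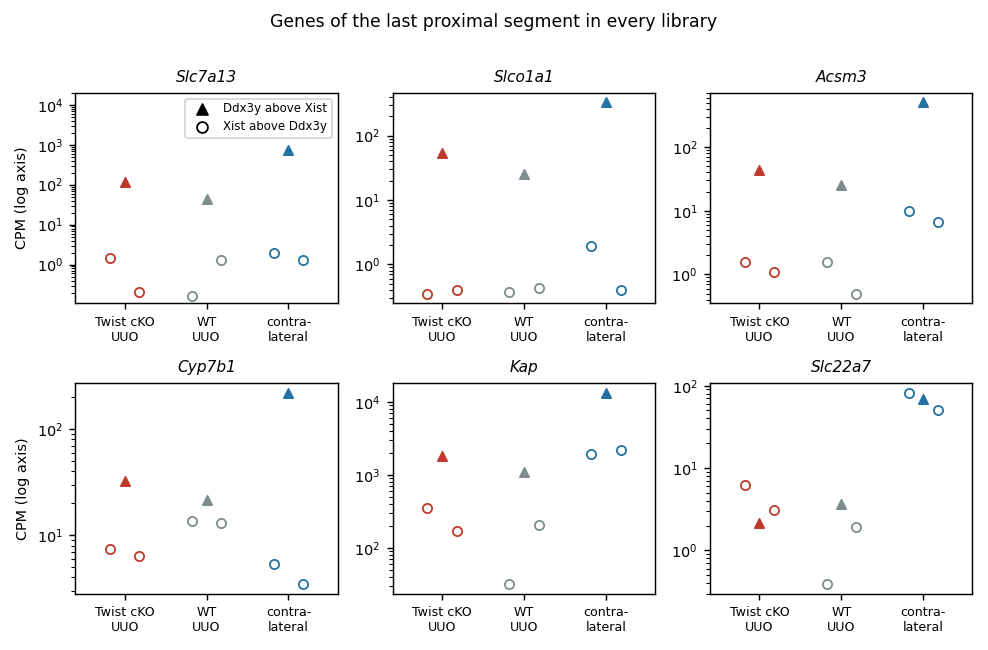
TMM-scaled CPM (y axis, log scale) of 6 genes of the last proximal segment in each library of Twist cKO UUO, WT UUO and contralateral kidneys (x axis). Triangles are libraries with more Ddx3y than Xist counts, circles the others; Slc7a13 was 117 CPM and 745 CPM in the male Twist cKO UUO and contralateral libraries and under 2 CPM in the others of these groups.

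Further along the nephron the median falls were smaller. In the thick ascending limb, the salt-reabsorbing part of the loop of Henle, 9 of 11 genes were lower, with a median of −1.27. Its cotransporter gene Slc12a1 had 376, 388 and 418 CPM in Twist cKO UUO, against 1407, 1192 and 1556 CPM in contralateral kidneys (log2 fold change −1.81 ± 0.33, adjusted p = 0.00053). The potassium channel gene Kcnj1 fell by 1.62 and the tight junction gene Cldn10 by 1.77 on the log2 scale. Umod did not pass, with 1770, 2032 and 1440 CPM in Twist cKO UUO and 2878, 2509 and 3334 CPM in contralateral kidneys (−0.73 ± 0.36), although the groups did not overlap. In the distal tubule 8 of 10 genes were lower, among them Slc8a1, the sodium-calcium exchanger gene (−2.12 ± 0.31), and the kallikrein gene Klk1 (−3.06 ± 0.52). Trpv5, the calcium entry channel gene of this segment, was the one that rose, at 55.3, 97.2 and 79.4 CPM in Twist cKO UUO, against 35.0, 31.4 and 42.4 CPM (1.09 ± 0.29, adjusted p = 0.0070).

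Of 11 genes of collecting duct principal cells, 2 were lower, the water channel gene Aqp4 (−2.38 ± 0.61) and the sodium channel gene Scnn1a (−1.11 ± 0.36), and the median was −0.57. The number lower lay between 1 and 6 under the alternatives, a minimum of 2-fold aside. The Scnn1a call, with an adjusted p of 0.022, was lost without Twist cKO UUO 1 (0.079), Twist cKO UUO 3 (0.070) or contralateral 3 (0.065). Of 12 genes of intercalated cells, which secrete acid or base, 7 were lower and 1 was higher, with a median of −1.09. Against healthy kidneys 3 were lower, with a median of −0.59. The ammonia channel gene Rhbg had 11.3, 8.46 and 5.24 CPM in Twist cKO UUO, against 45.5, 43.2 and 53.9 CPM in contralateral kidneys (log2 fold change −2.51 ± 0.33, adjusted p = 4.4e-05). The one that rose was Kit (0.57 ± 0.20, adjusted p = 0.031), and its adjusted p was 0.10 without Twist cKO UUO 1, 0.062 without Twist cKO UUO 2, 0.11 without contralateral 2 and 0.076 without contralateral 3. Podocyte genes went both ways, 3 higher and 3 lower of 10, with a median of −0.23. Synpo, which encodes synaptopodin, rose by 0.63 ± 0.16, while Magi2, a slit diaphragm scaffold gene, fell by 0.55, with an adjusted p of 0.015 that became 0.056 without contralateral 1. The count of lower podocyte genes was 1 against healthy kidneys, 0 without contralateral 1 and 1 without contralateral 3, Twist cKO UUO 2 or Twist cKO UUO 3. The summed podocyte level was 327 to 360 CPM in Twist cKO UUO and 360 to 505 CPM in contralateral kidneys.

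Transcription factors that maintain nephron identity fell in 7 of 14 cases and rose in 1, with a median of −0.45. Hnf4a, the proximal tubule regulator gene, had 185, 241 and 184 CPM in Twist cKO UUO, against 588, 776 and 561 CPM in contralateral kidneys (log2 fold change −1.66 ± 0.32, adjusted p = 0.00082). Lhx1, a loop and distal factor gene, fell by 1.26 and Ppargc1a, the coactivator gene of mitochondrial biogenesis, by 1.16. Pax8, a regulator active in kidney development and after injury, was the one that rose, at 132, 128 and 185 CPM in Twist cKO UUO, against 72.3, 81.2 and 73.3 CPM (0.97 ± 0.13, adjusted p = 4.4e-05). Pax2 and Pou3f3 did not pass.

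Nuclear and mitochondrial genes of energy metabolism fell as a block. All 24 oxidative phosphorylation genes and all 20 citric acid cycle genes were lower in Twist cKO UUO, with medians of −1.36 and −1.33, as were 22 of 24 fatty acid oxidation genes (−1.27). Etfa, the electron acceptor gene of fatty acid oxidation, had 44.4, 57.7 and 46.8 CPM in Twist cKO UUO, against 146, 165 and 125 CPM in contralateral kidneys (log2 fold change −1.55 ± 0.15, adjusted p = 3.5e-06). The medium-chain dehydrogenase gene Acadm fell by 2.37 and the transporter gene Cpt1a, which admits long-chain fatty acids to mitochondria, by 0.96 on the log2 scale. Idh3b, Sdhc and Mdh1 of the citric acid cycle fell by 1.4, 1.31 and 1.78, and the complex I genes Ndufb5, Ndufs1 and Ndufs3 by 1.33, 1.55 and 1.32. The falls within the oxidative phosphorylation list lay between −1.71 and −1.12, the narrowest range of the 20 lists with 15 or more tested genes.

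Messenger RNAs encoded in mitochondria were lower in all 13 cases, with a median of −2.30. mt-Nd2, a complex I gene, had 449, 742 and 657 CPM in Twist cKO UUO, against 2947, 3498 and 2667 CPM in contralateral kidneys (log2 fold change −2.30 ± 0.24, adjusted p = 7.4e-06). mt-Nd4 fell by 2.16 and mt-Cytb by 2.13. The mitochondrial ribosomal RNA share given above was also lower in Twist cKO UUO, and its part in these values was not tested. Mitochondrial sequences have near-identical nuclear copies, so counts of single mitochondrial genes are uncertain. Without mitochondrially encoded genes in the fit, 9006 genes were called.

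Sugar metabolism changed unevenly. Genes of gluconeogenesis and fructose use, proximal tubule functions, fell in 8 of 10 cases with a median of −2.08. Fbp1, a gluconeogenic phosphatase gene, fell by 2.64 on the log2 scale. Pck1, the rate-setting cytosolic enzyme gene, had 317, 506 and 160 CPM in Twist cKO UUO, against 3111, 1913 and 2223 CPM in contralateral kidneys (log2 fold change −2.88 ± 0.54, adjusted p = 0.00065). Pck2, the mitochondrial form, had 23.4, 22.3 and 22.9 CPM, against 12.8, 11.9 and 13 CPM, and rose by 0.86 ± 0.10 (adjusted p = 1.5e-05). Of 20 glycolysis genes, 9 were lower and 3 were higher, with a median of −0.56. Gapdh fell by 1.14. Hk2, the inducible hexokinase gene, had 11.7, 16.1 and 13 CPM in Twist cKO UUO, against 2.43, 2.17 and 2.25 CPM (2.57 ± 0.37, adjusted p = 8.0e-05), and the enolase gene Eno2 rose by 1.73 ± 0.23. The third was Hk3, at an adjusted p of 0.035 that rose above 0.05 whichever of the 6 libraries was left out (0.054 to 0.094).

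Genes of cholesterol synthesis fell in 12 of 16 cases, and the median was −0.88. Cyp51, a sterol demethylase gene, fell by 2.04 on the log2 scale, the sterol sensor gene Insig1 by 1.45 and Hmgcs1, an early synthase gene of the pathway, by 1.33. The count was 7 without Twist cKO UUO 1 and 7 against healthy kidneys. Hmgcs1 alone of the 9 list genes with a promoter in the table held the sterol regulatory element TCACNCCAC, which binds SREBP factors and was in 1.04% of all promoters. Its promoter, at chr13:119690101-119690350 (+), is printed with the match in capitals.

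Hmgcs1: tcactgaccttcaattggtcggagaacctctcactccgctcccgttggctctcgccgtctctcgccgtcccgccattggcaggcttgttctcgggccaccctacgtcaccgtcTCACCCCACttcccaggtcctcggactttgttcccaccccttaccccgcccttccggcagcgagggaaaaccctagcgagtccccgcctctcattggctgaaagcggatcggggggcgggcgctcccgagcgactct

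Antioxidant genes fell in 13 of 15 cases and 1 rose, with a median of −0.97. Sod2, the mitochondrial superoxide dismutase gene, had 86.9, 101 and 66.1 CPM in Twist cKO UUO, against 260, 294 and 262 CPM in contralateral kidneys (log2 fold change −1.69 ± 0.19, adjusted p = 1.1e-05). The catalase gene Cat fell by 1.83 and the plasma glutathione peroxidase gene Gpx3 by 2.41. Slc7a11, the cystine importer gene, rose by 3.06 ± 0.73 (adjusted p = 0.0037). Hmox1, the haem oxygenase gene, had 13, 11.5 and 9.76 CPM in Twist cKO UUO and 8.18, 18.8 and 10.1 CPM in contralateral kidneys, and the groups overlapped.

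Cell cycle genes rose modestly: 14 of 25 were higher, and the median was 0.77. Mcm3, a subunit of the replicative helicase, had 9.35, 11.3 and 14.2 CPM in Twist cKO UUO, against 5.36, 3.21 and 4.36 CPM in contralateral kidneys (log2 fold change 1.43 ± 0.20, adjusted p = 7.1e-05). Mcm2 and Mcm5 of the same helicase rose by 0.62 ± 0.13 and 0.93 ± 0.23. Mki67, the proliferation marker gene, had 44.6, 45.4 and 63.5 CPM in Twist cKO UUO, against 33.2, 26.4 and 20.9 CPM (0.93 ± 0.28, adjusted p = 0.015), and its adjusted p was 0.069 without Twist cKO UUO 3 and 0.065 without contralateral 3. Without contralateral 3, 9 cell cycle genes were called, without contralateral 3 and WT UUO 3, 8, and against healthy kidneys, 22. Pcna had 21.5, 23.8 and 20.04 CPM in Twist cKO UUO and 25.1, 23.6 and 18 CPM in contralateral kidneys, and the groups overlapped.

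The CCAAT box, to which NF-Y binds, was in 17 of the 21 cell cycle promoters in the table (81.0%) and in 34.5% of all promoters. It was in 32.8% of promoters of genes called higher and 38.1% of those called lower in Twist cKO UUO. The 2 helicase promoters that follow differ in the number of matches, 3 in Mcm3 at chr1:20820313-20820562 (−) and 1 in Mcm2 at chr6:88898781-88899030 (−), in capitals on either strand.

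Mcm3: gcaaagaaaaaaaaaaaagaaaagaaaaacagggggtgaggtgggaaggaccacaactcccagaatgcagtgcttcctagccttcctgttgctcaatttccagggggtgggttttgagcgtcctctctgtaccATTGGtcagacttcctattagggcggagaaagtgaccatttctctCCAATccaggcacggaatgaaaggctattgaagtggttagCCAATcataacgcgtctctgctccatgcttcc
Mcm2: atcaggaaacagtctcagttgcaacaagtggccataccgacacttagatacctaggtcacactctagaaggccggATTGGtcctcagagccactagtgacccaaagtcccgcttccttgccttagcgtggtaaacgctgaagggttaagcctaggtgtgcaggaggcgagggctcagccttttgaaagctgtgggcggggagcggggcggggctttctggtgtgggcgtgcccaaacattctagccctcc

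Myc, a driver of growth and ribosome biogenesis, had 19.6, 17.9 and 29.2 CPM in Twist cKO UUO, against 4.41, 3.45 and 4.43 CPM in contralateral kidneys (log2 fold change 2.44 ± 0.25, adjusted p = 5.6e-06). Of 19 Myc target genes, 8 were higher and 2 were lower, with a median of 0.18. Npm1, a nucleolar chaperone gene, rose by 0.58 ± 0.07, Cdk4 by 0.41 ± 0.08 and Tert, the telomerase gene, by 1.8 ± 0.36. Odc1, the polyamine synthesis gene, was lower at 63.8, 79.9 and 52.4 CPM in Twist cKO UUO, against 193, 428 and 164 CPM (−2.00 ± 0.42, adjusted p = 0.0015). Of 14 p53 and senescence genes, 7 were higher and 2 were lower. The death effector gene Bbc3 rose by 2.29 ± 0.26, the cell cycle inhibitor genes Cdkn2b and Cdkn1a by 2.14 ± 0.30 and 1.5 ± 0.42, and the p53 target Phlda3 by 1.5 ± 0.27. Glb1, the lysosomal galactosidase gene, fell by 1.53 and Ccng1, the cyclin G1 gene, by 0.98.

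Genes of the renin-angiotensin system fell in 4 of 9 cases. The angiotensin-converting enzyme gene Ace fell by 1.74, the aminopeptidase gene Enpep by 0.97 and the renin receptor gene Atp6ap2 by 0.80. Agt, the angiotensinogen gene, had 29.1, 33.2 and 27.9 CPM in Twist cKO UUO, against 18.5, 14.8 and 15.9 CPM in contralateral kidneys, but its adjusted p of 0.048 rose above 0.05 whichever of the 6 libraries was left out (0.070 to 0.13).

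The 10 largest falls include a fat cell gene. Cidec, a lipid droplet gene of fat cells, had 0.0522, 0.292 and 0.161 CPM in Twist cKO UUO, against 13.9, 2.64 and 19.95 CPM in contralateral kidneys (log2 fold change −6.15 ± 2.32, adjusted p = 0.045). All 10 adipocyte markers had every Twist cKO UUO library below every contralateral library, as did 27.3% of all tested genes. Of the 10 markers, 7 were called lower, and the summed level was 64.0 to 73.2 CPM in Twist cKO UUO, against 131 to 324 CPM. Lep was at 0 in all 3 Twist cKO UUO libraries. The adipocyte count was 1 without any single Twist cKO UUO library, 3 without contralateral 1, 2 without contralateral 3 1 without a filter on low counts, 2 with limma's voom and 0 against healthy kidneys, whose summed level was 75.5 to 223 CPM. The part of fat tissue in these values was not tested. Cidec lost its call without contralateral 1 (adjusted p = 0.068), contralateral 3 (0.086), or Twist cKO UUO 1 (0.13), 2 (0.092) or 3 (0.12).

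Slc22a7, described above, Alb and Ttr were also among the 10 largest falls. Alb, the albumin gene, had 0.691, 0.462 and 0.190 CPM in Twist cKO UUO, against 13.5, 4.31 and 4.79 CPM in contralateral kidneys (log2 fold change −4.06 ± 0.70, adjusted p = 0.00035). Ttr, the transthyretin gene, fell by 3.92, the cytochrome gene Cyp2d12 by 4.44, the lipogenic gene Thrsp by 4.04, Sec14l3 by 3.77 and the betaine methyltransferase gene Bhmt by 3.73. Pvalb, the parvalbumin gene of distal tubule, fell by 3.82 (adjusted p = 0.047), and Tpm3-rs7, a tropomyosin retrogene whose reads may be shared with Tpm3, by 3.74 (adjusted p = 0.044). The Pvalb call was lost without any one of Twist cKO UUO 1 (adjusted p = 0.14), Twist cKO UUO 3 (0.13), contralateral 1 (0.098), contralateral 2 (0.058) or contralateral 3 (0.094). That of Tpm3-rs7 was lost without Twist cKO UUO 1 (0.10), 2 (0.10) or 3 (0.12), contralateral 1 (0.12) or contralateral 3 (0.076).

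Other markers of tissue makeup differed too. Red blood cell genes fell in 6 of 8 cases and 1 rose, Epb4.2, which encodes a membrane skeleton protein (1.59 ± 0.45, adjusted p = 0.0096). Slc4a1, counted here as a red blood cell gene, is also on the intercalated cell list. Summed red blood cell levels were 70.2 to 80.5 CPM in Twist cKO UUO and 185 to 389 CPM in contralateral kidneys. Without contralateral 3, 2 genes were called lower, without Twist cKO UUO 3, 3, and with sex and Cre presence as covariates, 2. Urothelial genes, of the lining of the renal pelvis, had a summed level of 29.0 to 67.9 CPM in Twist cKO UUO, against 3.71 to 21.0 CPM in contralateral kidneys, with 1 of 10 called higher, Sprr2f, at 3.94, 1.96 and 2.32 CPM in Twist cKO UUO and 0 in all 3 contralateral libraries. Of 4 lymphatic endothelial genes, Flt4 was higher (0.48 ± 0.15, adjusted p = 0.015, and 0.051 without Twist cKO UUO 3) and Prox1, a lymphatic identity factor gene, was lower (−1.20 ± 0.22). Of 6 skeletal muscle genes 1 was higher and 1 was lower, with summed levels of 17.0 to 20.4 CPM in Twist cKO UUO and 8.58 to 14.0 CPM in contralateral kidneys. The part of these tissues in the other results was not tested.

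Set against the same contralateral libraries, WT UUO kidneys had 11281 genes called (53.6%), 5799 (27.5%) higher and 5482 (26%) lower, with a median log2 fold change of 0.06 over all genes. Since both comparisons share the contralateral kidneys, only the values are given side by side, and the difference was tested directly between Twist cKO UUO and WT UUO. The median of the matrix list over contralateral was 1.97 in Twist cKO UUO and 3.25 in WT UUO. For early proximal genes it was −2.21 in Twist cKO UUO and −3.49 in WT UUO. In the tubular injury list the medians were close, 2.89 in Twist cKO UUO and 3.11 in WT UUO, as in the T cell list, 2.75 and 2.57.

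**Figure D4:**
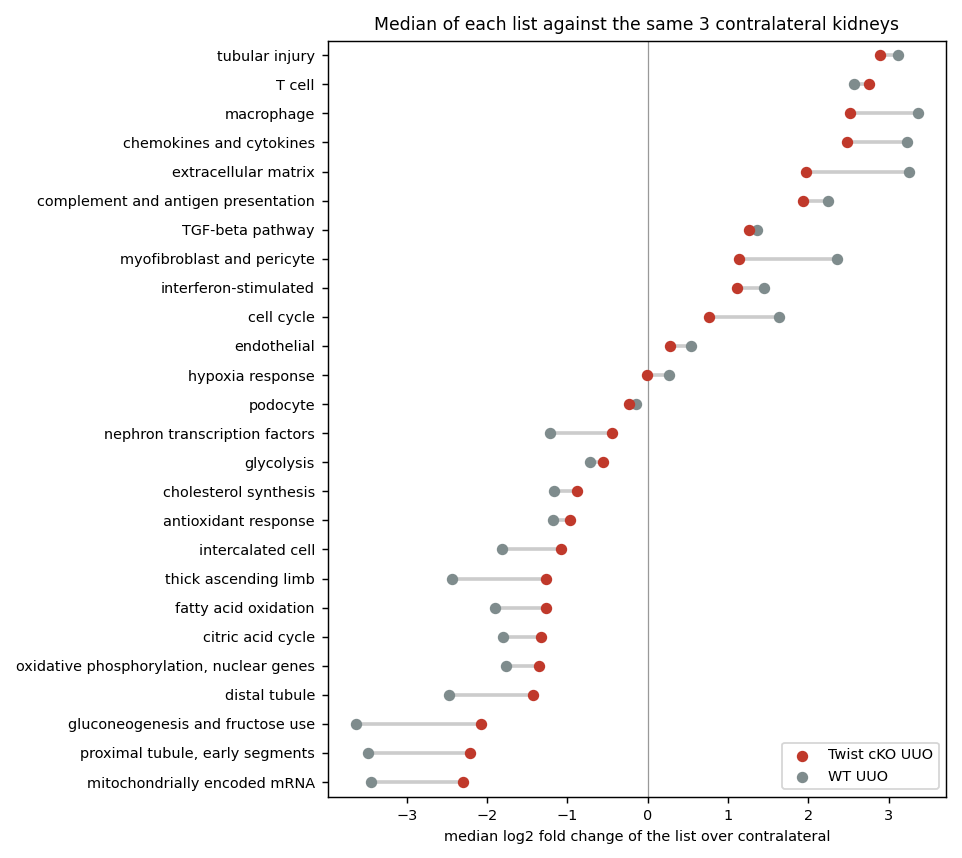
Median log2 fold change over the same 3 contralateral kidneys (x axis) for 26 of the 39 lists (y axis) in Twist cKO UUO and in WT UUO. Each grey bar joins the pair. Lists not drawn include adipocyte genes, with medians of −6.82 in Twist cKO UUO and −0.97 in WT UUO. Late proximal genes (−2.50 and −3.69) and red blood cell genes (−1.80 and −1.75) are not drawn either. Matrix genes had medians of 1.97 in Twist cKO UUO and 3.25 in WT UUO, and tubular injury genes 2.89 and 3.11.

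Tested directly, Twist cKO UUO and WT UUO kidneys differed at 1111 genes (5.28%), of which 625 (2.97%) were higher in Twist cKO UUO and 486 (2.31%) were lower. Matrix genes made up 18 of the lower ones, of 33, and cell cycle genes 14 of 25, while 9 of 16 early proximal genes and 8 of 14 nephron transcription factors were higher. Of the tubular injury list 1 of 18 genes differed, Plaur, and 0 of 13 T cell genes, 0 of 23 genes for chemokines or cytokines and 0 of 20 complement and antigen presentation genes did by edgeR's test. At an unadjusted p under 0.05 these lists held 0, 3 and 4 genes, and by DESeq2 0, 1 and 1. The number of calls depended strongly on which library was left out. Without WT UUO 1, 13 genes were called in all, and without Twist cKO UUO 2, 24. Without Twist cKO UUO 1, Twist cKO UUO 3 or WT UUO 2 it was 316, 347 and 395, and without WT UUO 3, 1057. At an unadjusted p under 0.05 in edgeR's test there were 4811 genes with all libraries, 3187 without WT UUO 1 and 3674 without Twist cKO UUO 2. No matrix, cell cycle or early proximal gene was called without WT UUO 1 or without Twist cKO UUO 2.

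Among single genes, Timp1 had 12.0, 14.0 and 10.8 CPM in Twist cKO UUO, against 55.6, 61.8 and 48.0 CPM in WT UUO (log2 fold change −2.17 ± 0.42, adjusted p = 0.019), and both stood above contralateral kidneys. Acta2 had 43.0, 56.5 and 44.4 CPM, against 239, 252 and 89.4 CPM in WT UUO (−2.01 ± 0.51, adjusted p = 0.038), with WT UUO 3 the lowest of its group. Lrp2 had 1680, 2013 and 1368 CPM, against 416, 874 and 840 CPM in WT UUO (1.25 ± 0.27, adjusted p = 0.025). Cdh5 had 50.5, 49.1 and 44.7 CPM, against 109.7, 70.5 and 74.4 CPM in WT UUO (−0.82 ± 0.13, adjusted p = 0.012). In all 4 genes no Twist cKO UUO library overlapped with WT UUO. Without Twist cKO UUO 2 the adjusted p was 0.074 for Timp1, 0.11 for Acta2, 0.096 for Lrp2 and 0.052 for Cdh5. Without WT UUO 1 it was 0.078 for Timp1, 0.15 for Acta2 and 0.10 for Lrp2. Without Twist cKO UUO 1 it was 0.051 for Timp1, 0.10 for Acta2 and 0.052 for Lrp2, without Twist cKO UUO 3 it was 0.056 for Timp1 and 0.11 for Acta2, and without WT UUO 2 it was 0.11 for Acta2. Col1a1 did not pass, with 1429, 1297 and 687 CPM in WT UUO kidneys (−1.52 ± 0.51, adjusted p = 0.093), nor did Havcr1 (−0.39 ± 0.99) or Ccl2 (−0.39 ± 0.40).

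Genes on either side of Twist1 on chromosome 12 were examined because the floxed allele is carried there. Twist1 lies at chr12:33957671-33959829 (+, mm10), and 136 tested genes lay within 20 Mb of it. Of these, 43.4% were called between Twist cKO UUO and contralateral kidneys, against 43.3% of the genes placed elsewhere. Between Twist cKO UUO and WT UUO, 11.0% of the near genes were called, against 5.34% elsewhere. Between Twist cKO UUO and Snail cKO UUO, where 36 genes (0.171%) were called in all, the shares were 5.88% near Twist1 and 0.123% elsewhere. Between Twist cKO UUO and Myc cKO UUO, with 630 genes (2.99%) called, they were 8.09% and 3.03%. No test of these shares was made. Zfp125, annotated as a transcribed pseudogene at chr12:20877084-20921262 (−, mm10), had 0.326, 0.329 and 0.190 CPM in Twist cKO UUO, against 2.07, 2.51 and 1.79 CPM in contralateral kidneys (log2 fold change −2.90 ± 0.44, adjusted p = 0.00011). It was 3.57, 3.73 and 2.36 CPM in WT UUO and 0.0610, 0.328 and 0.0620 CPM in healthy kidneys. The low libraries were thus those of the 2 groups labelled floxed for Twist throughout, while contralateral 3 and WT UUO 3, labelled floxed as well, were the lowest of their groups but several times above those libraries. Against healthy kidneys, Zfp125 in Twist cKO UUO had a log2 difference of 0.94. 3110053B16Rik overlaps Zfp125, and their reads may be shared.

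**Figure D5:**
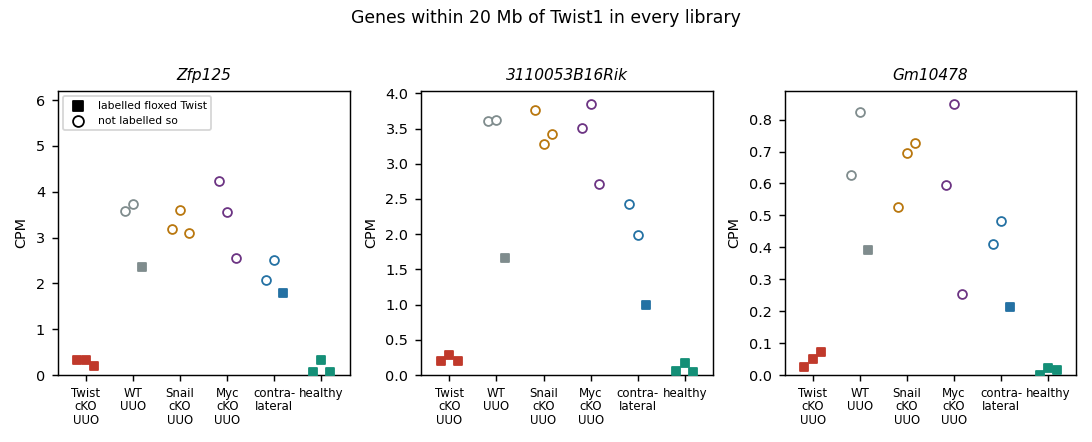
CPM (y axis) of 3 genes within 20 Mb of Twist1 in each library of the 6 groups (x axis). Squares are libraries labelled as carrying floxed Twist alleles; Zfp125 was 0.190 to 0.329 CPM in Twist cKO UUO and 1.79 to 2.51 CPM in contralateral kidneys, including the square of contralateral 3.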

How the data were processed

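Whole-kidney RNA was sequenced as stranded whole-transcriptome libraries on a NextSeq500, per the labels' protocols, and the authors deposited raw counts per gene symbol in 1 table. HTSeq, bcl2fastq 1.8.4, DESeq2 and the mm10 build are named in the submitters' processing notes, with no role stated. The table holds 31787 symbols, of which 958 had no counts, and 6 of its columns matched no sample used here and were left out. Libraries were grouped by source label, and replicate numbers follow the order of the samples and were not used to pair libraries.

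All 18 libraries were fitted together in edgeR 4.0.16 (R 4.3.3) with TMM scaling, a filter on low counts by group (21050 genes kept), robust quasi-likelihood estimation and 12 residual degrees of freedom. Tests were two-sided with Benjamini-Hochberg adjustment over all tested genes, and a gene was called at an adjusted p under 0.05. A standard error is the absolute log2 fold change divided by the square root of the F statistic. The procedure was run on simulated data in which few genes changed, and only in Twist cKO UUO. In the comparison here 42.9% of tested genes were called, so that run cannot show how the procedure performs at this extent. The depth of 52.6 to 91.3 M counts limits low genes, and counting error is part of each standard error.

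The comparison, its gene lists and the genes named were chosen with earlier results of these data known. The genes named by rule are a fixed panel, the 10 largest non-overlapping rises and falls whose mean log2 CPM was 1 or more, with at least 3 counts in every library of the lower group, the 3 smallest p-values per list, and called members against the direction of their list (at most 2). For the other contrasts of obstructed groups the rule takes the 5 largest rises and falls. Further genes were named after their values were seen. A few genes are not reported here. Some lists share genes. Alternatives were DESeq2 1.42.0, limma 3.58.1 (voom), other scaling, filters, covariates and left-out libraries. Healthy kidneys as the reference, and leaving out contralateral 3 and WT UUO 3, were chosen after seeing the data. Promoters are from RefSeq GRCm38.p6, gene positions from GENCODE on mm10.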

Additional observations from a re-analysis of the deposited data

Results flagged for a closer look

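Twist cKO UUO and WT UUO kidneys differed at 1111 genes in edgeR's quasi-likelihood test. It compares the 2 obstructed groups directly, since both were set against the same contralateral libraries. Unobstructed kidneys of Cre-positive floxed mice were not among the libraries. A difference in the change on obstruction therefore cannot be told apart from one that genotype makes without obstruction. Of the 5 largest rises named by rule, Ces1d, a carboxylesterase gene, had 50.5, 75.9 and 11.9 CPM in Twist cKO UUO, against 3.18, 10.2 and 8.20 CPM in WT UUO (log2 fold change 2.68, adjusted p = 0.024). Slc22a8, an organic anion transporter gene, had 63.3, 71.3 and 13.3 CPM in Twist cKO UUO, against 2.19, 10.1 and 12.4 CPM (2.58). In both genes Twist cKO UUO 3 lay close to the WT UUO range. Dpys, a pyrimidine breakdown enzyme gene, differed by 2.63, Vmn1r19 by 2.44 and Clec2h by 2.35.

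The 5 largest falls included Arg1, at 0.965, 1.10 and 0.774 CPM in Twist cKO UUO, against 13, 16.3 and 10.7 CPM in WT UUO (log2 fold change −3.82, adjusted p = 0.019). Ereg, which encodes the growth factor epiregulin, differed by −3.55, Zfp125 by −3.50, the matrix proteoglycan gene Vcan by −2.81 and Ptgs2, the inducible cyclooxygenase gene, by −2.73. Of these 10 genes, Zfp125 alone was still called without WT UUO 1 and without Twist cKO UUO 2.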

How the results depend on the processing

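The count of genes called between Twist cKO UUO and contralateral kidneys was 9029 and lay between 7442 and 8251 when 1 library was left out. It was 1582 when tested against a minimum of 2-fold, which asks for a larger change, and 8372 to 10162 under the other alternatives except the 8065 genes without contralateral 3 and WT UUO 3. The direct contrast with WT UUO was the least stable, with 1111 calls and 13 to 1057 when 1 library was left out. It gave 733 without a filter on low counts, 2494 with DESeq2, 1 against a minimum of 2-fold, 1831 with sex as a covariate and 1908 with sex and Cre presence. The causes were not tested. The contrast with Snail cKO UUO gave 36 calls, 152 with DESeq2 and 14 to 25 with 1 library left out, and that with Myc cKO UUO gave 630, 1624 and 194 to 515.

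Only a part of the tested genes was followed through the alternatives. Among these, values that changed sign were of genes not called, apart from Zfp125 and 3110053B16Rik, which were 0.94 and 1.35 against healthy kidneys. Other called genes near Twist1 changed sign as well. Gm10478 was −2.87 over contralateral and 1.85 over healthy kidneys, and Sntg2 was 1.31 and −0.57. With 1 library left out, the log2 fold change over contralateral ranged from −0.043 to 0.050 for Hif1a, −0.16 to 0.068 for Pcna, −0.34 to 0.32 for Hmox1, −1.27 to 0.65 for Arg1, −0.68 to 0.22 for S100a8, −8.17 to 4.61 for Slc7a13 and −7.04 to 0.92 for Acsm3. Ccl2 ranged from −0.60 to 0.17 over WT UUO. Hif1a was 0.014 without a filter, 0.013 with at least 1 CPM in 3 libraries, 0.025 with only both groups compared, 0.0069 without mitochondrially encoded genes, 0.022 against healthy kidneys and 0.050 without contralateral 3 and WT UUO 3. Pcna was 0.0032 with only both groups compared, Hmox1 0.018 with sex as a covariate, and Arg1 0.0077 with sex and Cre presence and 0.65 without contralateral 3 and WT UUO 3. Against healthy kidneys S100a8 was 0.18 and Myh11 0.077. No paired analysis was made, since the labels give no replicate numbers and do not tie libraries to animals. Twist cKO UUO and contralateral libraries differed in labelled genotype. By labelled genotype and sex, each contralateral library matched the WT UUO library of the same number and no other of that group. Whether these were kidneys of the same mice was not tested, and these groups were compared as unpaired.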
